A study of Mus musculus with 2 samples.

Results

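The dual-specificity MAP kinase phosphatases were examined in murine macrophages stimulated with IL-4, a type 2 cytokine under which macrophages take on the alternatively activated, or M2, state. The 9 genes were chosen by name, as Dusp1, Dusp2, Dusp4, Dusp5, Dusp6, Dusp7, Dusp8, Dusp10 and Dusp16, and all 9 were among the 15623 genes listed in the deposited tables. The cells were peritoneal macrophages of wild-type C57BL/6 mice, 6 to 8 weeks old per the methods of the study, taken 4 to 5 days after an injection of thioglycolate, an irritant that draws macrophages into the cavity. They were purified by adherence, starved in medium with 0.5% serum, and either left nontreated (NT) or stimulated with mouse IL-4 for 6 h. Each group held 1 library, and how many mice gave cells to it was not stated. No difference below was therefore checked against the spread between replicates, and library and condition cannot be told apart.

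MAP kinases are switched on when a kinase adds phosphate to a threonine and a tyrosine in their activation loop, and the dual-specificity phosphatases remove both. The main MAP kinases are ERK, JNK and p38, which carry signals from growth factor, cytokine and Toll-like receptors to the nucleus. Many of these phosphatases are immediate early genes that are transcribed in response to the kinases they switch off, so that they form negative feedback loops. In macrophages, Dusp1 is known above all as a brake on p38 and JNK after Toll-like receptor stimulation. By textbook location and substrate they fall into a nuclear, inducible class (Dusp1, Dusp2, Dusp4 and Dusp5), a cytoplasmic class selective for ERK (Dusp6 and Dusp7) and a class selective for JNK and p38 (Dusp8, Dusp10 and Dusp16).

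Promoter sequence was at hand from RefSeq (GRCm38.p6) for 8 of the 9 genes, all but Dusp4, as windows from 250 bases before to 50 bases after the start of the gene. The windows of 2 genes held the palindromic cAMP response element TGACGTCA, a motif bound by CREB-family factors, and that of 1 gene held a pair of abutting CArG boxes, the motif of serum response factor. These stretches are shown because each element is known from immediate early genes. Capitals mark the motif, and each sequence is given along the strand of its gene.
Dusp1, chr17:26508596-26508627, minus strand: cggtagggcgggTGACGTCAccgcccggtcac
Dusp8, chr7:142095328-142095359, minus strand: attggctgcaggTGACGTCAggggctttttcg
Dusp8, chr7:142095372-142095403, minus strand: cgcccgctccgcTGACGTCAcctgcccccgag
Dusp5, chr19:53529051-53529094, plus strand: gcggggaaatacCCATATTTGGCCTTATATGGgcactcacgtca
The first base of the Dusp1 element lay 143 bases upstream of the start, and those of Dusp8 lay 63 and 107 bases upstream. The CArG boxes of Dusp5 began 72 and 82 bases upstream. Distances are from the start that the RefSeq table uses, which for Dusp7, Dusp8 and Dusp16 lies inside the span of the gene given below.

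The motifs were searched on both strands, and the same search was run on all 32851 windows of the table. The full cAMP response element was in 1.79% of all windows and in 2 of 8 here. The core TGACG, which every full element also contains, was in 20.8% of all windows and in those of Dusp1, Dusp2, Dusp5, Dusp8 and Dusp16, although the match in Dusp2 lay downstream of the start. The CArG box was in 1.63% of all windows and in 1 of 8 here. The letters of a STAT6-type site (TTC and GAA with 4 bases between, in 6.95% of all windows), another STAT-type site (TTCNNNGAA, 8.30%), an AP-1 site (TGANTCA, 7.81%) and an NF-kB site (4.51%) were in none of the 8. The windows were rich in GC, with a median of 67.8% against 52.7% over all windows. A match is a description of the letters only.

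The libraries held 11035641 (NT) and 11250099 (IL-4) expected counts, which are the reads that the RSEM program assigned to each gene. The deposited FPKM values are scaled for transcript length and for the fragments assigned. At these depths a total of 3 counts, the limit that a count of 0 allows, was 0.272 CPM in NT and 0.267 CPM in IL-4. The 8 macrophage markers examined, among them Lyz2, Cd68 and Csf1r, were all present in both libraries, with Csf1r past the threshold described next in the direction of IL-4 and Cd14 in that of NT. A label field that names the tissue as bone marrow goes against the other labels, which name peritoneal macrophages. All 8 M2 genes named by the study passed the same threshold in the direction of IL-4, a list that was written with earlier results of these data known. In bulk RNA, fewer cells of a type and less RNA per cell cannot be told apart.

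After IL-4 stimulation the ratios within the family lay on both sides of 0. Dusp4 and Dusp2, both nuclear phosphatases, rose by 2.58-fold and 1.74-fold. The ratios of the other 7 genes lay below 0 on the log2 scale, from -0.03 (Dusp5) to -1.25 (Dusp8), but none of them passed the threshold, and that of Dusp5 was too close to 0 to have a direction, since it turned to 0.01 with another scaling of the libraries. A gene passed the threshold when the IL-4 level over the NT level was at least 0.75 in size on the log2 scale and the 95% counting interval of the ratio left out 0. By this rule 2 of the 9 genes were higher in IL-4, against 4.07% of 15593 genes with at least 1 read, and 0 of 9 were lower, against 6.28%. The 9 genes had a median of -0.41 on the log2 scale, beside -0.03 over all genes with reads. A ratio below 0 was itself common, at 54.7% of all genes with reads, beside 7 of the 9. The intervals hold the error of counting and no other, and PCR copies among the reads make them too narrow.

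**Figure D1:**
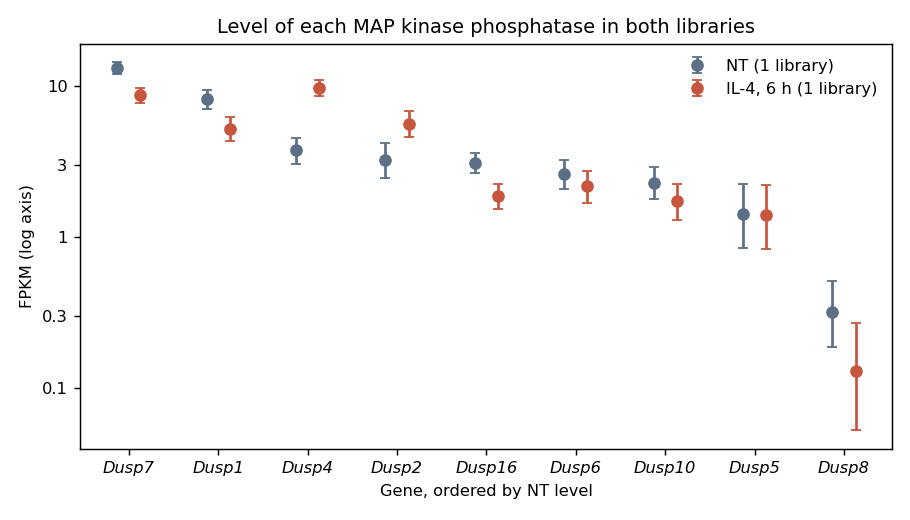
FPKM of the 9 phosphatases in the NT and IL-4 libraries on a log axis, with genes ordered by their NT level. Points are the deposited values and bars are exact 95% Poisson intervals of the counts put on the FPKM scale. Dusp4 and Dusp2 lie higher in IL-4, at 9.71 and 5.64 FPKM, and Dusp7, Dusp1 and Dusp16 lie lower.

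Dusp4 (gene 319520, chromosome 8, 34807610 to 34819894, GRCm38), known as MKP-2, is a nuclear phosphatase that acts on ERK, JNK and p38 in vitro. It had 101 counts in NT and 266 in IL-4, or 3.76 and 9.71 FPKM. The counting intervals of these levels, 3.06 to 4.57 FPKM in NT and 8.58 to 10.9 FPKM in IL-4, did not overlap. On the log2 scale the ratio was 1.36, and its interval (1.03 to 1.71) lay wholly above the threshold. Among the 10590 genes with at least 50 reads over both libraries, 98.2% had a lower ratio than Dusp4.

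Dusp2 (gene 13537, chromosome 2, 127336159 to 127338377), known as PAC-1, is an inducible nuclear phosphatase of leukocytes. It had 58 counts in NT and 103 in IL-4, or 3.24 and 5.64 FPKM. The intervals of the levels, 2.46 to 4.19 and 4.60 to 6.84 FPKM, did not overlap either. Its log2 ratio was 0.80, but the interval from 0.32 to 1.29 included the threshold, so the depth did not settle on which side of 0.75 the ratio lies. The interval of Dusp2 overlapped that of Dusp4, and the difference between these 2 rises was not tested directly.

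Neither of the other nuclear phosphatases passed the threshold. Dusp1 (gene 19252, chromosome 17, 26505591 to 26508472), known as MKP-1, had 176 counts in NT and 115 in IL-4, or 8.18 and 5.24 FPKM. The log2 ratio of Dusp1 was -0.64, and its interval (-0.99 to -0.29) left out 0 but included the threshold. Thus Dusp1 stood lower in IL-4 by more than counting error but short of the threshold, while Dusp2 and Dusp4 stood higher. Dusp5 (gene 240672, chromosome 19, 53529145 to 53541809), a nuclear phosphatase that acts on ERK alone, had 18 counts in each library, or 1.43 and 1.40 FPKM. The interval of its ratio reached down to -1.05 and about as far above 0, so a change of up to this size in either direction was not detectable at this depth. The tables gave Dusp5 a length of 1155 bases, whereas the GENCODE transcript paired with it has 2473 bases, of which 1109 are 3′ UTR, so its level rests on a shorter gene model.

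In the cytoplasmic class, Dusp7 had the highest FPKM of the 9 genes in the NT library. Dusp7 (gene 235584, chromosome 9, 106368560 to 106375724), known as MKP-X, had 471 counts in NT and 318 in IL-4, or 13.1 and 8.70 FPKM. Its log2 ratio was -0.59, and the interval from -0.80 to -0.39 was the narrowest of the 9 because Dusp7 had the most reads. Dusp6 (gene 67603, chromosome 10, 99263231 to 99267489), known as MKP-3 and a common readout of ERK activity, had 82 counts in NT and 69 in IL-4, or 2.63 and 2.17 FPKM. The log2 ratio of Dusp6 was -0.28, and its interval from -0.76 to 0.20 included 0. A difference in Dusp6 was therefore not detectable at this depth.

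The class selective for JNK and p38 had ratios below 0 for all 3 genes, as did 54.7% of all genes with reads, and none passed the threshold. Dusp16 (gene 70686, chromosome 6, 134715468 to 134807063), known as MKP-7 and best known for JNK, had 177 counts in NT and 108 in IL-4, or 3.10 and 1.86 FPKM. Its log2 ratio of -0.74 (interval -1.10 to -0.39) came just short of the threshold, and it passed at -0.76 when libraries were scaled without the 100 most abundant genes. Dusp10 (gene 63953, chromosome 1, 184034381 to 184075636), known as MKP-5, had 69 counts in NT and 53 in IL-4, or 2.29 and 1.73 FPKM. The log2 ratio of Dusp10 was -0.41, and its interval (-0.95 to 0.13) included 0. Dusp8 (gene 18218, chromosome 7, 142079487 to 142095907) was the least abundant, with 17.01 counts in NT and 7 in IL-4, or 0.32 and 0.13 FPKM. Its log2 ratio of -1.25 was the furthest below 0, but the interval from -2.82 to 0.04 included 0 and was the widest of the 9.

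**Figure D2:**
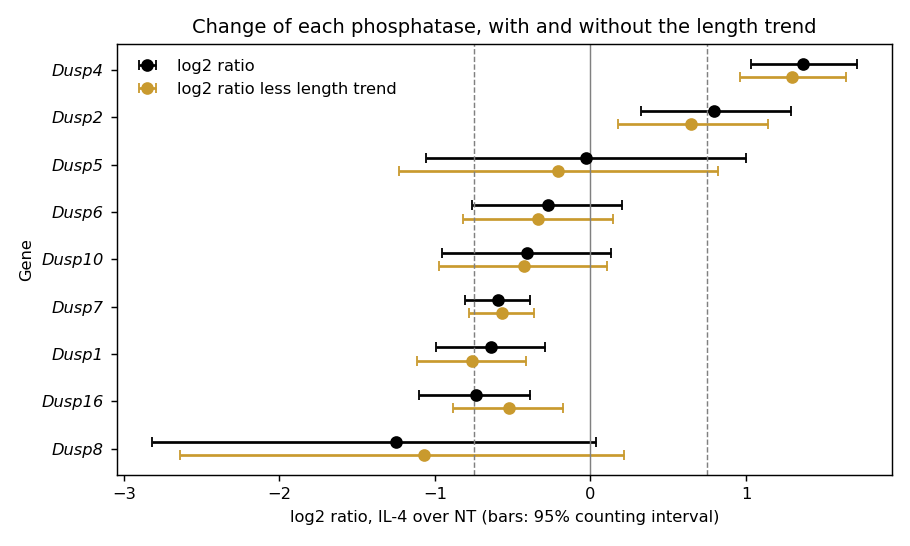
Ratio of IL-4 over NT on the log2 scale for each phosphatase, with 95% counting intervals as bars. Black points are ratios from counts scaled to the library totals, ochre points are the same less the median ratio of genes of similar transcript length, and dashed lines mark 0.75 in either direction. Dusp4 is the gene whose interval lies wholly beyond a line, from 1.03 to 1.71.

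The order of the 9 phosphatases by FPKM differed between the libraries. The 9 genes together had 38.09 FPKM in NT and 36.58 FPKM in IL-4, a log2 ratio of -0.06 whose interval (-0.19 to 0.07) included 0. Their counts summed to 1169 in NT and 1057 in IL-4, which on the log2 scale was -0.17 with an interval (-0.29 to -0.05) that left out 0. In NT the order by FPKM was Dusp7, Dusp1, Dusp4, Dusp2, Dusp16, Dusp6, Dusp10, Dusp5 and Dusp8. The intervals separated Dusp7 from Dusp1, Dusp1 from Dusp4, and Dusp5 from Dusp8, and those of the other 5 pairs of neighbours overlapped. In IL-4 the order was Dusp4, Dusp7, Dusp2, Dusp1, Dusp6, Dusp16, Dusp10, Dusp5 and Dusp8. Here the intervals separated Dusp7 from Dusp2, Dusp1 from Dusp6, and Dusp5 from Dusp8, but not Dusp4 from Dusp7.

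Dusp4 thus went from the third to the first place in level, and its share of the summed FPKM went from 9.87% to 26.5%. The share of Dusp2 went from 8.51% to 15.4%. In contrast, the share of Dusp7 went from 34.5% to 23.8% and that of Dusp1 from 21.5% to 14.3%. The nuclear class summed to 16.61 FPKM in NT and 21.99 in IL-4, a log2 ratio of 0.40 (interval 0.20 to 0.61). This sum joins the rises of Dusp4 and Dusp2 with the ratios of Dusp1 (-0.64) and Dusp5 (-0.03). The cytoplasmic class had 15.77 and 10.87 FPKM, a log2 ratio of -0.54 (interval -0.72 to -0.35). The class selective for JNK and p38 had 5.71 and 3.72 FPKM, a log2 ratio of -0.62 (interval -0.91 to -0.33). These class sums were not corrected for the link between ratio and transcript length described below, which differs between the genes. With Dusp2 and Dusp4 set aside, a division made after their values were seen, the other 7 genes summed to 31.09 FPKM in NT and 21.23 FPKM in IL-4. In the NT library 70.9% of the genes with reads had a lower FPKM than Dusp7, and 23.5% had a lower FPKM than Dusp8.

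Transcript length moved with the ratios in this series and bears on the phosphatases unequally. Over the 8461 genes that had 200 reads or more, Spearman's rho of ratio and length was -0.45, a description across genes, which share their libraries. For the 200 genes closest in length the median log2 ratio was 0.15 for Dusp2 (1630 bases), 0.12 for Dusp1 (1952 bases), -0.18 for Dusp8 (4839 bases) and -0.21 for Dusp16 (5112 bases). With that median subtracted, Dusp4 stayed past the threshold at 1.29, and its interval was 0.96 to 1.64. Dusp2 came to 0.65 and no longer passed, although its interval from 0.18 to 1.14 left out 0. Dusp1 came to -0.76 and passed (interval -1.12 to -0.42), while Dusp16 came to -0.52. On this scale 1 of 9 genes was higher, against 4.07% of all genes, and 1 of 9 was lower, against 4.85%. Dusp7, of middle length, was little touched, at -0.57.

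**Figure D3:**
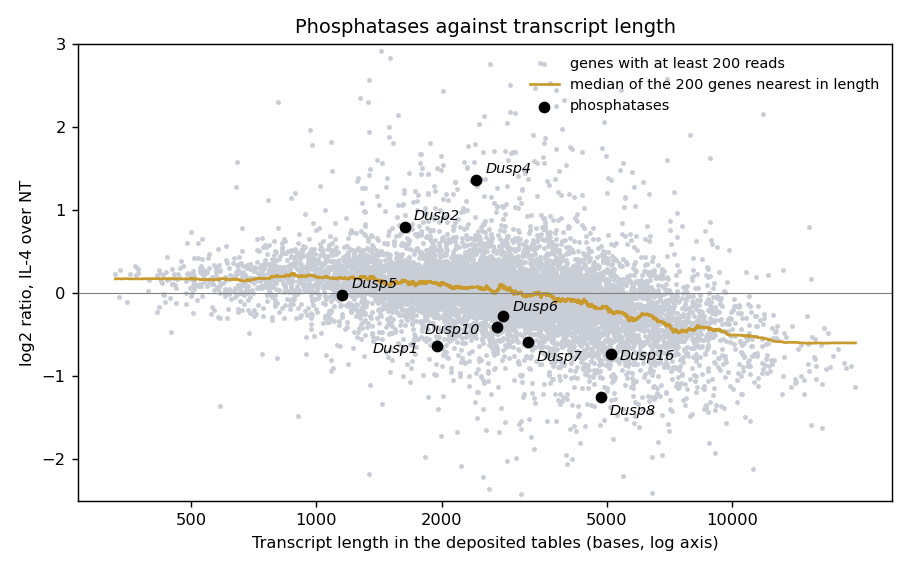
Ratio of IL-4 over NT (log2 scale) against transcript length in the deposited tables (log axis), for genes with at least 200 reads (grey) and the 9 phosphatases (black), and a line at the median of the 200 genes closest in length. Genes beyond the axes are not drawn. Dusp4 and Dusp2 lie above the line and the other 7 below it.

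The transcripts also differed in a 3′ UTR feature of unstable messages, the AU-rich word ATTTA, which was counted after the ratios were known. Dusp2 had 4 of these in a 3′ UTR of 581 bases and Dusp1 had 4 in 690 bases. These were 6.88 and 5.80 per kilobase, more than in 97.2% and 95.6% of 14125 genes with a 3′ UTR in the annotation. Dusp4 had 2 in 1111 bases, or 1.80 per kilobase, near the median of 1.25 per kilobase, and Dusp7 had 0 in 1778 bases. Dusp2 and Dusp1, the densest of the 9 in ATTTA, had log2 ratios of 0.80 and -0.64. Next in density were Dusp10 (2.70 per kilobase) and Dusp8 (2.11 per kilobase), with ratios of -0.41 and -1.25. Whether this word bears on the ratios was not tested.

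In the rest of the family few genes passed the threshold. Dusp9, the other classical MAP kinase phosphatase, had 9 counts in NT and 8 in IL-4. Of 16 further dual-specificity phosphatases, Dusp9 included, 13 had reads, 0 were past the threshold in the direction of IL-4 and 1 in that of NT, Dusp13 (61 to 36 counts, log2 ratio -0.78). With the length trend subtracted, Dusp28 passed as well, at -0.81 (interval -1.40 to -0.26). The median log2 ratio of this list was -0.19, with 6 ratios above 0 and 7 below. Over its 9 genes with at least 50 reads the median was 0.03. The most abundant of them was Dusp3, a small phosphatase without a MAP kinase docking domain, with 85.5 FPKM in NT and 64.2 FPKM in IL-4. The log2 ratio of Dusp3 was -0.41 (interval -0.48 to -0.34), short of the threshold but with 0 left out. With the length trend subtracted it was -0.32 (interval -0.39 to -0.25). Dusp22 went the other way, at 0.37 (interval 0.15 to 0.59). Of 8 tyrosine and serine/threonine phosphatases that also act on MAP kinases, 7 had reads and none passed. Among them, Ppp2ca, the catalytic subunit of PP2A, had 93.0 and 109 FPKM, and Ppm1a, a metal-dependent phosphatase, had 26.8 and 30.4 FPKM. Ptpn7, a tyrosine phosphatase, had 20.3 and 13.6 FPKM, a log2 ratio of -0.58 whose interval (-0.75 to -0.42) left out 0. Of the 7 genes, 4 had ratios above 0 and 3 below. The median log2 ratio of this list was 0.18.

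None of the kinases that these phosphatases act on passed the threshold. Of 13 MAP kinases 11 had reads and 0 passed, with Mapk3 (ERK1) at 173 FPKM in NT and 156 FPKM in IL-4, and Mapk14 (p38 alpha) at 27.3 and 26.4 FPKM. Their median log2 ratio was -0.07. Of 7 MAP kinase kinases, 1 rose, Map2k6, an activator of p38, from 20 to 58 counts (log2 ratio 1.49), and the list median was 0.06. Of 17 MAP kinase kinase kinases with reads, 3 fell, among them Map3k20 (-0.91) and Map3k9 (-1.65), and the list median was -0.32. Of 10 scaffolds with reads, 2 rose, Ksr2 from 4 to 85 counts and Mapk8ip1, a JNK scaffold, from 41 to 87 counts, with a list median of 0.01. Among 15 genes of Ras and its regulators, Rasgrp1, an activator of Ras, rose from 14 to 113.43 counts, and Nf1, an inhibitor of Ras, fell with a log2 ratio of -0.92. The fall of Nf1 did not pass with the length trend subtracted, and the list median was -0.09.

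Downstream of the kinases the lists were mixed. Of 10 kinases activated by MAP kinases with reads, Mapkapk3 rose (27.1 to 56.0 FPKM, log2 ratio 1.05) and 2 fell, Mknk2 (-0.85) and Rps6ka5 (-0.96), of which Rps6ka5 did not pass with the length trend subtracted, and the list median was -0.23. Of 7 Sprouty and Spred genes, feedback inhibitors of ERK that are induced like Dusp6, 1 fell, Spry3 (26 to 2 counts), and the list had a median log2 ratio of -0.68, but 4 of the 7 genes had fewer than 50 reads. Spred1, the most abundant of them, had 383 counts in NT and 466 in IL-4, a log2 ratio of 0.25 (interval 0.06 to 0.45). Of 16 transcripts that rise with ERK activity, 5 rose and 0 fell, with a list median of 0.44. These were Ier3 (log2 ratio 3.56), Egr2 (1.70), Myc (1.59), Etv5 (1.01) and Atf3 (1.01), several of which respond to other signals too. Jun and Junb, AP-1 subunits and abundant genes of this list, did not pass, with 76.2 and 74.6 FPKM for Jun and 63.0 and 75.6 FPKM for Junb. The lists were written with earlier results of these data known, and their counts are read beside the 4.07% and 6.28% of all genes given above.

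**Figure D4:**
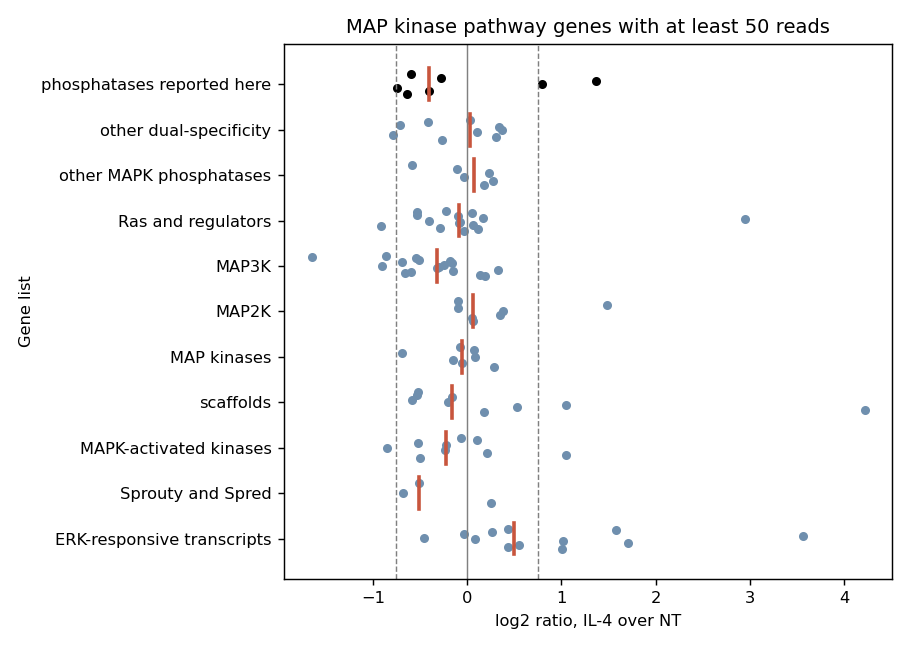
Ratio of IL-4 over NT (log2 scale) for each gene with at least 50 reads over both libraries, by list (1 row a list, 1 point a gene, red bars at the medians of the genes drawn, which differ from medians over all genes with reads, dashed lines at 0.75 in either direction). Of the 7 phosphatases with this many reads, Dusp4 and Dusp2 lie beyond the right line and the other 5 lie between the left line and 0.

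Marker sums of other cells that the adherent fraction could hold were low beside that of the 8 macrophage markers, 14906 FPKM in NT and 14768 FPKM in IL-4. Most of that sum was Lyz2 (11289 and 10811 FPKM) and Cd68 (3240 and 3465 FPKM). Other macrophage markers were far lower, down to Fcgr1 with 6.59 and 5.02 FPKM. The 8 T and NK cell markers summed to 1.87 FPKM in NT and 1.14 FPKM in IL-4, with Trac listed in neither library. The 6 B cell markers summed to 6.52 and 5.77 FPKM, with Ighm in neither. The 6 mast cell markers summed to 4.75 and 3.67 FPKM, the 5 eosinophil markers to 1.89 and 1.06 FPKM (mostly Siglecf, which fell from 53 to 27 counts), and the 6 dendritic cell markers to 0.88 and 0.99 FPKM. The 8 mesothelial and fibroblast markers summed to 40.1 and 33.4 FPKM, and Msln fell from 12 to 2 counts. Col1a1 (log2 ratio -0.36), Col3a1 (-0.39) and Pdgfra (-0.64) did not pass the threshold, but their intervals left out 0. With the length trend subtracted, the intervals of Col1a1 (-0.23 to 0.09) and Col3a1 (-0.36 to 0.09) included 0. That of Pdgfra (-0.61 to -0.07) still left out 0. The intervals of Upk3b, Krt19, Wt1 and Dcn included 0. The 8 neutrophil markers summed to 55.2 and 85.4 FPKM, of which Csf3r, which macrophages also express, made up 41.3 and 76.0 FPKM. S100a8 (35 and 21 counts), Mmp8 (74 and 50 counts) and Cxcr2 (84.1 and 83.9 counts) were present in both libraries. S100a9, Ngp, Camp and Retnlg were listed in neither. Csf3r itself rose (log2 ratio 0.88). The part of these cells in the ratios was not tested.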

How the data were processed

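RNA of 1 NT and 1 IL-4 library was analysed, grouped by the sample titles. Per the labels, the authors used Bowtie for mapping (build GRCm38/mm10) and RSEM for quantification, and versions are not given in the sources used here. The authors deposited expected counts (RSEM estimates, not scaled for depth), FPKM values and weighted transcript lengths. Genes absent from a table were set to 0. Gene numbers were matched to symbols and coordinates through RefSeq for GRCm38.p6 (15587 of 15623). The 9 members had reads in both libraries, and 8 had whole counts in both. Strand use in counting is not given, and 4 noncoding genes overlap 3 members, none with reads.

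Counts were scaled to the library totals (11035641 and 11250099) with 0.5 count added, and log2 ratios of IL-4 over NT were computed for 15593 genes with at least 1 read after rounding of the expected counts. The interval of a ratio is the exact Clopper-Pearson 95% interval of the share of a gene's reads in IL-4. With 1 library a group, no test over samples was possible and no p-value is given. The threshold of 0.75 is one the study used for this comparison. Intervals of summed FPKM used the Poisson variance of the counts. To subtract the length trend, each gene was set against the median of the 200 genes closest to it in length, drawn from genes that had 200 reads or more. The 3′ UTRs came from GENCODE M21 transcripts paired to RefSeq. The members and lists, and the rule that names every member, each list gene past the threshold and up to 4 abundant genes a list, were chosen with earlier results of these data known. Some genes that the rule names are not reported here. No genes of similar pattern were sought, since 2 libraries give 1 ratio a gene. The procedure was tested on simulated data with counting error only and with changes planted only in genes of higher count. That test cannot show how the procedure fares with spread between replicates or for genes of low count. Alternatives were TMM (edgeR 4.0.16) and median-of-ratios (DESeq2 1.42.0) scaling, used for size factors only, and those in the closing section. Python 3.11.15, scipy 1.17.1, pandas 2.3.3 and R 4.3.3 were used.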

Additional observations from a re-analysis of the deposited data

How the results depend on the processing

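No paired analysis was possible because NT and IL-4 have a single library each, and leaving out a library leaves no comparison. All alternatives were run. Of the 9 phosphatases, 2 were higher and 0 lower by the main rule. The number higher was 1 (Dusp4) at a log2 ratio of at least 1, with FPKM plus 1 (Dusp2 0.65), with at least 200 reads and with the length trend subtracted. The number lower was 1 with 0.75 in size alone (Dusp8), with the length trend subtracted (Dusp1) and without the 100 most abundant genes (Dusp16, -0.76), and 3 at 1.5-fold (Dusp1, Dusp7 and Dusp16). Dusp5 turned from -0.03 to 0.0090 with TMM scaling. Dusp4 passed under every alternative, between 1.17 and 1.40. Over all genes, 1693 were higher and 2598 lower with 0.75 in size alone, 391 and 399 with FPKM plus 1, and 303 and 492 with at least 200 reads, and 580 were lower at a log2 ratio of at least 1. The filter tested fewer genes, and an added constant shrinks ratios of low genes. The median of the 9 genes ranged from -0.43 to -0.22 where all 9 were kept, and it was -0.62 over the 4 genes with at least 200 reads. The other scalings moved all ratios by at most 0.04. Depth limits Dusp5, Dusp6, Dusp8 and Dusp10, whose intervals include 0.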
